A study of Mus musculus with 8 samples.

Results

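Tetraspanins are small membrane proteins that cross the membrane several times and hold partner proteins, such as integrins, immunoglobulin superfamily proteins and sheddases, together in membrane domains. In monocytes and macrophages they are known for adhesion, cell fusion, antigen presentation and the sorting of cargo into endosomes and exosomes. The 7 tetraspanins described here were chosen by name, with earlier results of these data known. CD81 and CD9 organize partners at the cell surface, and CD63 resides mainly in late endosomes and lysosomes. CD151 is a partner of laminin-binding integrins, CD82 is found at the surface and in endosomes, and CD53 and CD37 are restricted largely to leukocytes. All 7 genes have a row among the 16889 genes counted, and all 7 passed the filter on low counts in every comparison. The questions were how their transcripts vary between cells with few and cells with many transcripts of the complement genes C1qa, C1qb and C1qc, which colonic macrophages make and monocytes largely lack, and how they differ between conditions.

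CD11b+ cells that carried CCR2 or CD64 were sorted from the colonic lamina propria of 8 female CD98hcΔCX3CR1 littermates aged 6 to 12 weeks and analyzed by single-cell RNA sequencing with counting of unique molecular identifiers (UMIs) at the 3′ end of transcripts. All 8 mice carried a tamoxifen-inducible Cre recombinase with YFP under the control of Cx3cr1 (Cx3cr1CreER-YFP) and floxed CD98hc (Slc3a2). The 4 control mice (replicates 1 to 4) received corn oil, and the 4 cKO mice (replicates 5 to 8) received tamoxifen in corn oil, on 5 days, with cells taken on day 7. An effect of tamoxifen itself and that of the excision of exon 3 cannot be told apart, since no control mouse received it, and excision is limited to cells in which Cx3cr1 was active. Each mouse had 1 well, and all wells were run together, so that no batch separated the groups.

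Of 5947 barcodes, 3213 cells were kept, 1863 of control and 1350 of cKO mice, with 497531 to 3762314 UMIs per mouse. Control replicate 3 and cKO replicate 5 were small, with 85 and 83 cells, and 24 of the 58 doublet calls in cKO mice fell in cKO replicate 5, against 15 calls over all control mice. Among the cells kept, 8 barcode sequences occurred in more than 1 library. No difference of Slc3a2 was detected (337 ± 117 against 320 ± 27.9 UMIs per 1000000 UMIs (CPM), SD, 4 control and 4 cKO mice, adjusted p = 0.976, edgeR), so its 3′ count does not check the deletion. EYFP, the reporter, was at 58.0 ± 21.7 CPM in control against 29.4 ± 13.4 CPM in cKO mice (adjusted p = 0.104). Clustering without the genes studied here gave 9 clusters. A cluster of 503 cells with dendritic cell markers (Xcr1, Cd209a, Flt3, Itgae), 187 lymphoid-like cells (Jchain, Mzb1, Cd79a, Cd3g, Nkg7) and 86 stromal-like cells (Dcn, Col3a1) went against the labelled cell type and were set aside. The remaining 2437 cells were ranked by C1qa, C1qb and C1qc together per 10000 UMIs and divided into 3 equal bins, low (813 cells, up to 2.36), middle (812 cells) and high (812 cells, above 95.2).

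These bins are ranges of a score and not cell types, and 762 cells would change their bin with 1 UMI of C1q more or fewer. The 8 monocyte markers, among them Ly6c2 and Chil3, were lowest in the high bin. Their summed level was 6551 to 9745 CPM in control and 13124 to 14831 CPM in cKO mice in the low bin, and 455 to 1194 and 962 to 1745 CPM in the high bin. In the low bin the range of cKO mice thus lay above that of control mice. Of the control cells in the low bin, 6.29% belonged to cluster 4, led by Il1a, Acod1, Arg2 and Saa3, against 47.9% of the cKO cells, while cluster 8, led by the monocyte markers Chil3, F13a1 and Ly6c2, held 37.7% and 35.0%. In the high bin, cluster 5, led by the macrophage markers Fcrls, Pf4 and C1qc, held 48.4% of control and 13.6% of cKO cells. Cluster 6, led by Ccl8 and Pf4 and with a median of 1142 UMIs per cell, held 18.8% and 41.1%. Cells of the high bin had medians of 4151.5, 4859, 6122 and 4902.5 UMIs in control replicates 1 to 4. In cKO replicates 5 to 8 these medians were 1885.5, 2550, 4893 and 2305 UMIs.

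The promoter sequences of the 4 tetraspanins on which the results turn are shown first, since Cd81 and Cd63 rose along the ranking, Cd53 fell and Cd9 differed between conditions. They are taken from RefSeq on GRCm38.p6, the assembly that mm10 names, and run 5′ to 3′ on the strand of the gene from 250 bases before the start of transcription to 50 after the start given by RefSeq. That start can differ from the one of the gene span given below from GENCODE, and for Cd63 the window lies inside the span, since GENCODE has the gene begin further upstream. All 7 genes had an entry. Capitals mark matches on either strand to GAGGAA, the core bound by PU.1, the lineage factor of myeloid cells, or to GGGCGG, the GC box bound by Sp1.
Cd81, chr7:143052500-143052799, plus strand: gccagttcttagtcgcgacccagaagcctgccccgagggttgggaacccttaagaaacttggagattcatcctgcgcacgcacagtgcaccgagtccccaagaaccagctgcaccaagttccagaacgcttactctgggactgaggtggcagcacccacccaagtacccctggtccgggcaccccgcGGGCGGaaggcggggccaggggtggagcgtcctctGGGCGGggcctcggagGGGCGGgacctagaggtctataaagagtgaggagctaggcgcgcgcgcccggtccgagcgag
Cd63, chr10:128909095-128909394, plus strand: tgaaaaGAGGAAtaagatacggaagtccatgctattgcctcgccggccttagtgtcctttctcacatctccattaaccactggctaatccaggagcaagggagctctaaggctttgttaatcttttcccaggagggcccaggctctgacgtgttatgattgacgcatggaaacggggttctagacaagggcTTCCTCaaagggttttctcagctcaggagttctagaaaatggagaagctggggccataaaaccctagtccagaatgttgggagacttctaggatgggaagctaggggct
Cd9, chr6:125494711-125495010, minus strand: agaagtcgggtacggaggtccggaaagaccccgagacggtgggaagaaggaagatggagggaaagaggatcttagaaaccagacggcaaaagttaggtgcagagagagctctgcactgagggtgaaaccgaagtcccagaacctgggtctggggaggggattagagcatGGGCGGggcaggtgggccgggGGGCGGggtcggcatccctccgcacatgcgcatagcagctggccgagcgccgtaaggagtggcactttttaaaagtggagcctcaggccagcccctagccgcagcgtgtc
Cd53, chr3:106790100-106790399, minus strand: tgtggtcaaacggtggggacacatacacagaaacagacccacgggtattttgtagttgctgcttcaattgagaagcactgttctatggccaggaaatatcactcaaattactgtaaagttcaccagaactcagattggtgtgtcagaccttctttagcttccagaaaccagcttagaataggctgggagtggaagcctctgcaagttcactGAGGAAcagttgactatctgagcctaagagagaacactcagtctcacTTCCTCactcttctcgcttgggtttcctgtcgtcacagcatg

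The promoters of Cd63 and Cd53 each held 2 matches to GAGGAA and none to GGGCGG, whereas that of Cd81 held 3 and that of Cd9 held 2 matches to GGGCGG and none to GAGGAA. A match to GAGGAA occurs in 28.3% and a match to GGGCGG in 35.7% of the 32851 promoters of this length. No match to CACGTG (E-box, in 7.15% of promoters) or TGANTCA (AP-1, 7.81%) was present in these 4 windows, which says only that these letters are not in them. The GC content was 65.7% for Cd81, 61.3% for Cd9, 49.3% for Cd63 and 46.3% for Cd53. On GRCm38 (GENCODE vM21), Cd81 spans chr7:143052739-143067934, Cd151 chr7:141467392-141471473, Cd37 chr7:45233632-45239115, Cd63 chr10:128900989-128912822, Cd9 chr6:125460266-125494791, Cd53 chr3:106759921-106790149 and Cd82 chr2:93419111-93463140.

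Along the C1q ranking in control and cKO mice together, Cd81 and Cd63 rose most of the 7 tetraspanins. Cd151 and Cd82 rose less, Cd53 fell, and Cd9 and Cd37 did not pass the test. UMIs were summed per mouse and bin, and the high bin was compared with the low bin within the 6 mice that had at least 20 cells in each, which leaves out control replicate 3 and cKO replicate 5. By the quasi-likelihood test of edgeR, with p-values adjusted over all genes (Benjamini-Hochberg, threshold 0.05), 4 of 7 members were higher and 1 of 7 was lower in the high bin. Of all 10090 genes tested, 9.75% were higher and 12.3% lower (22% together). In control mice alone, 4 members were higher and 1 lower, where 706 of 10078 genes were higher and 656 lower. In cKO mice alone, 2 members were higher and 1 lower, where 542 of 10056 genes were higher and 893 lower. The members were chosen with results of these data known, so that their count is a description. CPM are given per total UMIs of a sum, and fold changes after TMM scaling.

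Cd81, a tetraspanin of the cell surface, was at 91.4, 61.4 and 35.0 CPM in the low bin of control replicates 1, 2 and 4 and at 37.2, 15.8 and 53.6 CPM in that of cKO replicates 6, 7 and 8. The high bin held 1511, 1718, 1136 and 966 CPM in control replicates 1 to 4 and 1105, 870, 730 and 950 CPM in cKO replicates 5 to 8. Every sum of the high bin lay above every sum of the low bin. The log2 fold change was 4.55 (standard error 0.14, 23.5-fold, adjusted p = 2.72e-25, edgeR). A UMI of Cd81 was found in 12.9% of cells of the low and 83.4% of cells of the high bin, and in 3.83% and 61.1% after each cell was thinned to 1000 UMIs. That share of 3.83% is as low as those not read as expression for Cd63 below.

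Cd63, the tetraspanin of late endosomes and secretory lysosomes, was at 103, 11.5 and 40.5 CPM in the low bin of control replicates 1, 2 and 4 and at 50.2, 63.1 and 93.5 CPM in cKO replicates 6, 7 and 8. Its level in the high bin reached 1059, 1030, 842 and 1056 CPM in control replicates 1 to 4 and 582, 870, 765 and 679 CPM in cKO replicates 5 to 8. The high bin again lay above the low bin in all 6 mice, as it did for 9.21% of all genes. The log2 fold change was 3.77 (standard error 0.20, 13.6-fold, adjusted p = 7.92e-18, edgeR). After thinning, 54.0% of cells of the high bin and 4.97% of the low bin had a UMI, against 4.07% of dendritic-like and 2.73% of lymphoid-like cells. Free RNA in droplets gives UMIs in cells that do not express a gene, and a share as low as those was not read as expression. The median depths before thinning were 4270, 4724, 9178 and 3515 UMIs per cell.

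Cd151, which binds laminin-binding integrins, was scarce. It was found at 0 to 12 CPM in the low bin and at 5.75 to 42.1 CPM in the high bin, and was higher in the high bin in 5 of 6 mice. Its log2 fold change was 1.81 (standard error 0.36, adjusted p = 1.54e-04, edgeR). After thinning, 0 to 4.40% of cells per mouse in the high and 0 to 2% in the low bin had a UMI. Shares about as low were not read as expression for Cd63. Cd82, described as a suppressor of metastasis and a partner of integrins, was at 27.4 to 69.1 CPM in the low and 40.2 to 87.7 CPM in the high bin, and was higher in all 6 mice. This difference was small (log2 fold change 0.50, standard error 0.18, adjusted p = 0.0464) and was lost (adjusted p = 0.0503 to 0.156) when any of the 6 mice was left out, that is, control replicate 1, 2 or 4 or cKO replicate 6, 7 or 8.

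Cd53, a tetraspanin of leukocytes, went the other way. In the low bin it was at 1068, 787 and 1104 CPM in control replicates 1, 2 and 4 and at 948, 1525 and 1387 CPM in cKO replicates 6, 7 and 8. The same mice had in the high bin 638, 653 and 891 CPM and 563, 1049 and 934 CPM. It was lower in the high bin in all 6 mice, as were 10.3% of all genes, although the range over mice overlapped between the bins. The log2 fold change was -0.56 (standard error 0.086, adjusted p = 2.85e-06, edgeR). Cd37, the other leukocyte tetraspanin, was at 31.3 to 57.6 CPM in the low and 20.1 to 67.3 CPM in the high bin, with a log2 fold change of -0.43 that did not pass (95% interval -0.86 to -7e-04, adjusted p = 0.171).

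**Figure D1:**
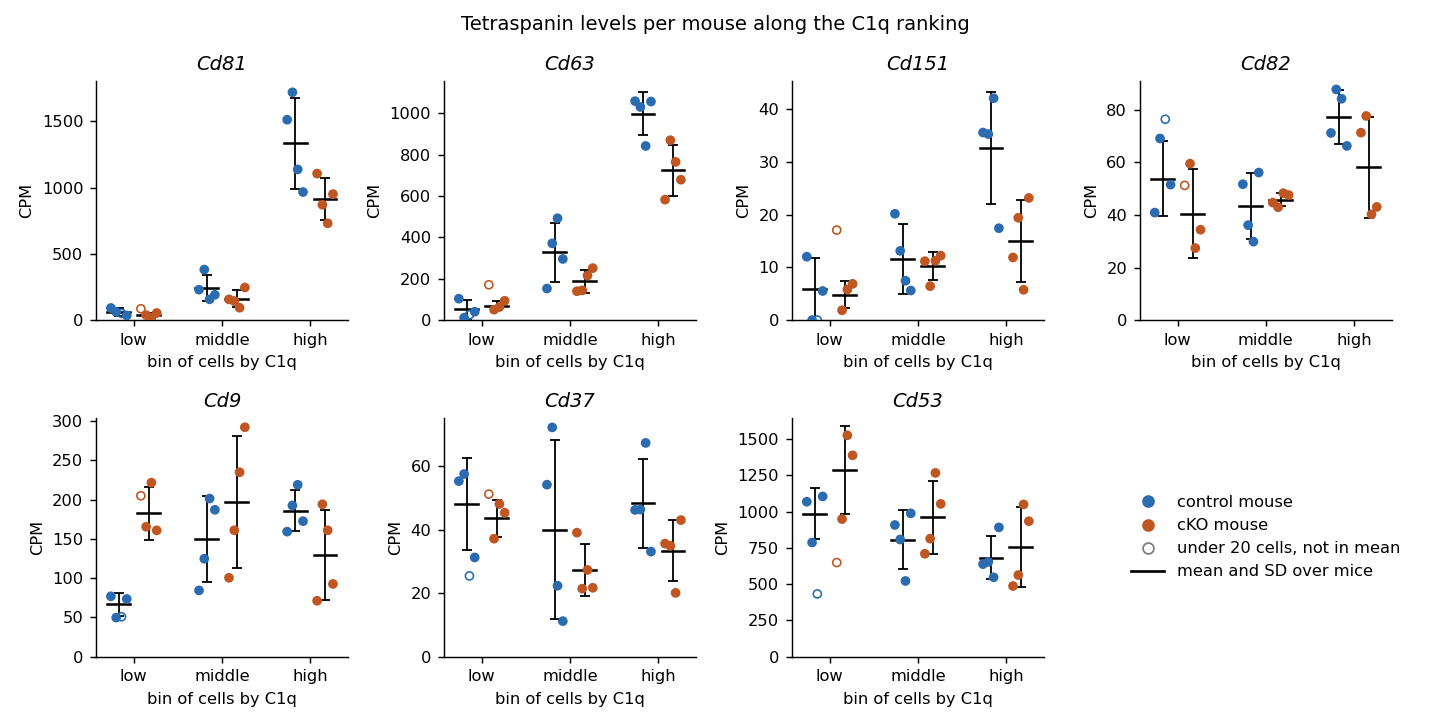
Level in CPM (y axis) of each of the 7 tetraspanins in the low, middle and high bin of cells by C1q (x axis), with a point per control or cKO mouse, the mean and SD over mice as bars, and open points for mice with under 20 cells in that bin. Cd81 and Cd63 climb from under 110 CPM in the filled points of the low bin to 582 CPM or more in the high bin, and the filled points of Cd9 separate control (49.9 to 77.0 CPM) from cKO mice (161 to 222 CPM) in the low bin.

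Division of the ranked cells into 5 steps showed where along the ranking the levels changed. The steps were not of equal size, since the 614 cells without a C1q UMI are tied and all lie in the lowest step. In control mice, Cd63 had means of 50.1 ± 37.5, 57.3 ± 45.6, 334 ± 166, 664 ± 71.1 and 1185 ± 188 CPM (SD, n = 3, 3, 4, 4 and 4 mice with at least 10 cells) from the lowest to the highest step. In cKO mice it had 41.9 ± 29.1, 126 ± 53.9, 225 ± 84.7, 364 ± 56.6 and 948 ± 243 CPM (n = 4 each). Cd63 was thus spread over the upper steps, and in the fourth step the cKO mice (279 to 399 CPM) lay below all control mice (606 to 757 CPM), a separation found for 2.19% of all genes in that step. Cd81 stayed at 178 ± 125 CPM or lower in the first 3 steps of control mice and reached 730 ± 373 and 1736 ± 160 CPM in the last ones, with 459 ± 91.9 and 1222 ± 99.9 CPM in cKO mice. In the highest step every cKO mouse was below every control mouse for Cd81, as for 2.49% of all genes. Cd9 in the second step was at 82.9, 65.0 and 61.1 CPM in control replicates 1, 2 and 4 and at 199, 176, 266 and 252 CPM in cKO replicates 5 to 8, a separation found for 4.21% of all genes. These steps were not tested.

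**Figure D2:**
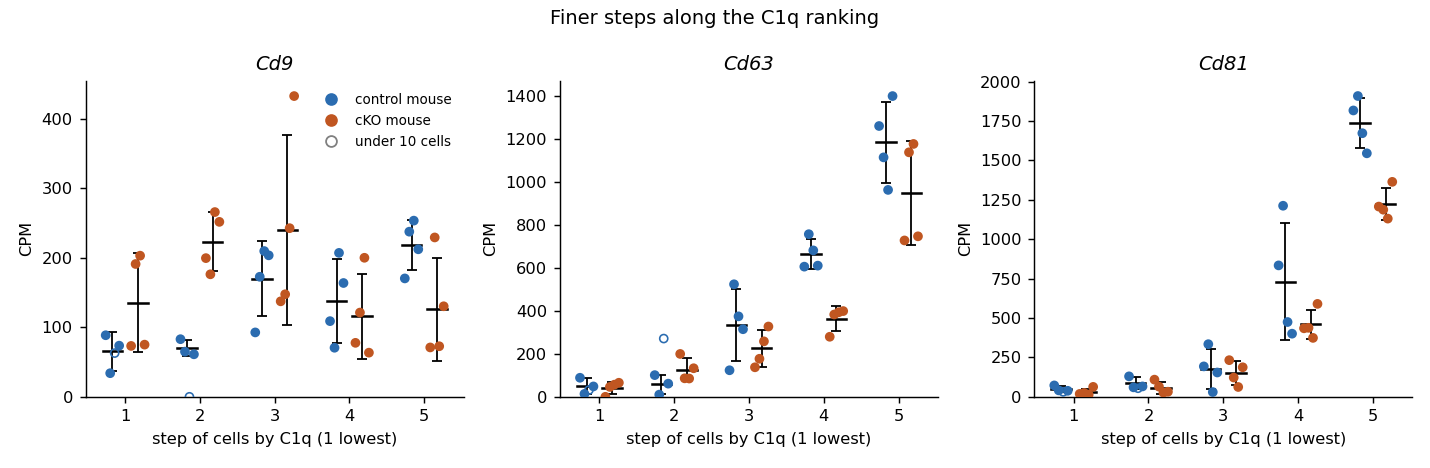
Level in CPM (y axis) of Cd9, Cd63 and Cd81 in 5 steps of cells ranked by C1q (x axis, 1 lowest), with a point per mouse, the mean and SD over mice with at least 10 cells as bars and open points for fewer cells. Cd63 and Cd81 are highest in step 5 in both groups, whereas Cd9 in cKO mice is higher in step 2 (176 to 266 CPM) than in control mice (61.1 to 82.9 CPM). In step 1 the groups overlap for Cd9.

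Of the 5 members called, Cd82 kept its call with other ranking genes (0.67 in place of 0.50, adjusted p = 0.00419, edgeR), and the others were smaller or lost their call. With cells ranked by Adgre1, Mertk, Fcgr1 and Csf1r in place of C1q, Cd81 and Cd63 were still higher in the high bin, but by 1.18 and 0.71 in place of 4.55 and 3.77 on the log2 scale (adjusted p = 1.77e-09 and 9.16e-04, edgeR). Under that ranking Cd53 was at -0.025 (adjusted p = 0.919) and Cd151 at 0.67 (adjusted p = 0.253), so that both calls were lost. When all cells kept were ranked by C1q, the groups set aside included, Cd81, Cd63 and Cd151 were at 2.95, 2.63 and 1.17. Cd82 then turned to -0.57 (adjusted p = 0.00493) and Cd9 to -0.71 (adjusted p = 6.2e-05), and Cd53 was at 0.038 (adjusted p = 0.873).

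The course of Cd9 along the ranking differed between the conditions. The gene codes for a surface tetraspanin that limits the fusion of macrophages and binds integrins. In the low bin, Cd9 was at 77.0, 49.9 and 73.6 CPM in control replicates 1, 2 and 4 and at 166, 222 and 161 CPM in cKO replicates 6, 7 and 8, without overlap. In the high bin it was at 159, 193, 219 and 173 CPM in control replicates 1 to 4 and at 71.3, 194, 161 and 92.7 CPM in cKO replicates 5 to 8, with overlap. In the middle bin control mice had 84.5 to 201 CPM and cKO mice 101 to 292 CPM. Cd9 was thus higher in the high than in the low bin in all 3 control mice compared, and in cKO replicate 6 but not in cKO replicates 7 and 8. Over the 6 mice the difference of 0.46 did not pass (95% interval 0.04 to 0.88, adjusted p = 0.127), and it passed without cKO replicate 7 (0.73, adjusted p = 0.0116) or cKO replicate 8 (0.63, adjusted p = 0.0171).

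Within the low bin, Cd9 was 2.86-fold higher in cKO than in control mice (log2 fold change 1.52, standard error 0.34, adjusted p = 0.0149, edgeR, 3 mice per group). It was the only one of the 7 members called there, where 1.09% of all genes were called and 0.842% were higher. A separation of cKO above control mice, as seen for Cd9, was found for 8.73% of all genes in this bin. The difference of the cKO effect between the high and the low bin, tested with the mouse as a term, was -1.77 on the log2 scale (standard error 0.32, adjusted p = 6.9e-04). Cd9 was the only one of the 7 members that passed, where 0.486% of all genes did and 0.278% were lower. For Cd63 the same difference was -0.81 (95% interval -1.55 to -0.08, adjusted p = 0.568).

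The call in the low bin was lost without control replicate 2 (log2 fold change 1.35, adjusted p = 0.134), without cKO replicate 7 (1.31, adjusted p = 0.157), with the lowest and highest of 4 bins in place of 3 (1.25, adjusted p = 0.0608), without the cells of cluster 4 (0.94, adjusted p = 0.399) and with the other ranking genes (0.76, adjusted p = 0.277). It turned to -0.43 (adjusted p = 0.297) when all cells kept were ranked, dendritic-like cells included. The difference between the bins kept its call with each of the 6 mice left out in turn (-2.07 to -1.58) and without cluster 4 (-1.43, adjusted p = 0.0304), and lost it with the other ranking genes (-0.74, adjusted p = 0.721) and with all cells ranked (0.047, adjusted p = 0.978).

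Cells with a UMI of Cd9 made up 14.9% of control and 32.5% of cKO cells in the low bin (medians of 4431.5 and 5085 UMIs per cell), and 5.17% and 13.8% after thinning to 1000 UMIs. The shares in the high bin were 34.4% and 22.5%, and 12.5% and 7.5% after thinning. Over the pooled cells, those with Cd9 were thus more frequent in cKO mice in the low and less frequent in the high bin. In the low bin, mice with at least 20 cells had thinned shares of 1.82 to 7% (control) and 10.2 to 15.8% (cKO). In the high bin the shares per mouse overlapped, at 5.56 to 14.8% and 3.39 to 10.7%. These shares were not tested, and the CPM in the high bin did not pass (log2 fold change -0.39, adjusted p = 0.791, edgeR). EYFP was lower in cKO mice in the low bin (-2.34, adjusted p = 0.0038) and the middle bin (-1.80, adjusted p = 0.0114), and its part in the difference of Cd9 was not tested. No cell group here is known to lack Cd9, so that its background was not measured. Stromal-like cells, which should lack the leukocyte gene Cd53, had a UMI of it in 1.20% of thinned cells, against 64.3% in the low bin.

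By cluster, Cd9 was highest among the clusters ranked in cluster 4, with 221, 323 and 405 CPM in cKO replicates 6, 7 and 8 and 247 CPM in control replicate 4, the only control mouse with at least 20 cells there. In cluster 8, with the monocyte markers, it was at 20.0, 41.7 and 15.7 CPM in control replicates 1, 2 and 4 and at 162, 64.6 and 81.0 CPM in cKO replicates 6, 7 and 8. The control and cKO mice with at least 20 cells did not overlap, as for 6.32% of all genes in this cluster, in sums that held 4 to 53 UMIs of Cd9 each. In cluster 2, led by Ccl24 and Ccl5, the means were 163 ± 65.4 CPM in control (SD, n = 4) and 148 ± 17.7 CPM in cKO mice (SD, n = 3). Cluster 6 had 112 ± 44.3 CPM in control and 79.4 ± 63.0 CPM in cKO mice (SD, n = 3 each). Cluster 5 had 186 ± 29.7 CPM in control mice (SD, n = 3), and no cKO mouse had at least 20 cells there. The part that the different makeup of the low bin has in the difference of Cd9 was not tested beyond leaving out cluster 4. That of the makeup and depth of the high bin was not tested, and neither were the values by cluster.

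**Figure D3:**
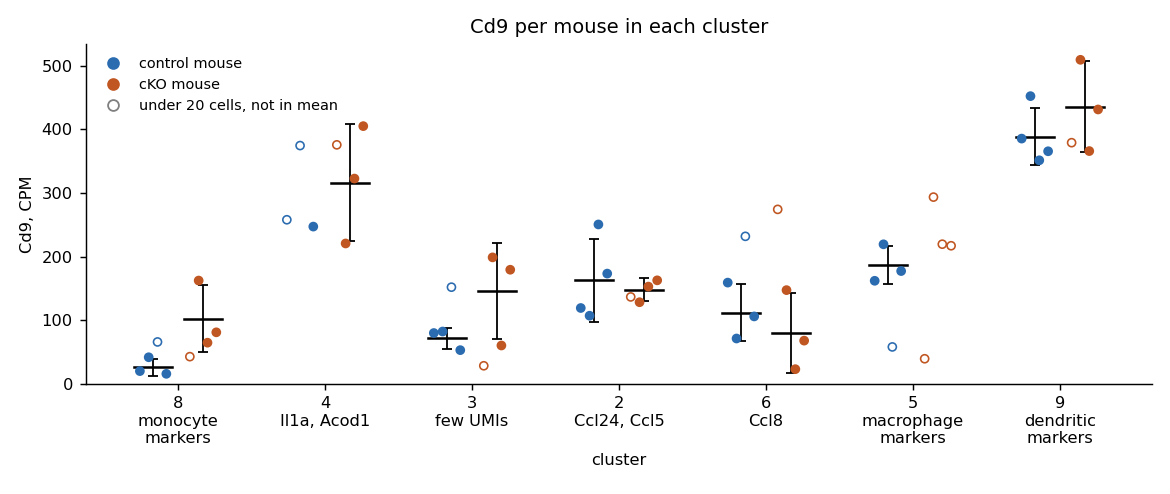
Level of Cd9 in CPM (y axis) per mouse in 7 of the 9 clusters (x axis, with their leading genes or markers), with the mean and SD over mice with at least 20 cells as bars and open points for fewer cells. Among the filled points, cKO mice lie above control mice in cluster 8, where the open point of control replicate 3 (65.8 CPM) lies among those of cKO mice, both groups overlap in cluster 2, and dendritic-like cells (cluster 9) are at 409 CPM on average.

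Over all cells kept, Cd63 was the only tetraspanin called between conditions. It was at 467, 427, 394 and 352 CPM in control replicates 1 to 4 and at 239, 221, 207 and 264 CPM in cKO replicates 5 to 8, and all cKO mice were below all control mice. The log2 fold change was -0.73 (standard error 0.14, 0.605 of the control level, adjusted p = 0.0154, edgeR, n = 4 each). This was 1 of 7 members, where 4.48% of 11387 genes were called and 1.48% were lower, and where cKO and control mice separated in this direction for 8.34% of genes. The call was lost without control replicate 1 (-0.64, adjusted p = 0.0672), control replicate 2 (-0.71, adjusted p = 0.0596) or cKO replicate 7 (-0.69, adjusted p = 0.0519). In sums over all cells, fewer cells of a type and less RNA per cell cannot be told apart.

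The mean shares of cells in the low and high bins differed too, but did not pass after adjustment. Their part in the result for Cd63 was not tested. The high bin held 43.5 ± 11.7% of the ranked cells in control against 22.5 ± 5.32% in cKO mice (SD over 4 mice each, -21.0 points, p = 0.0286, the smallest that the two-sided exact permutation test over 70 arrangements can give, adjusted p = 0.0857 over the 3 bins). The low bin held 22.0 ± 8.24% and 40.2 ± 11.9% (exact permutation p = 0.0571, adjusted p = 0.0857). Within the high bin, Cd63 had a log2 fold change of -0.44 (95% interval -1.01 to 0.13, adjusted p = 0.729), and within the middle bin of -0.67 (95% interval -1.28 to -0.07, adjusted p = 0.501, edgeR). With the other ranking genes these were -1.34 and -1.10 (adjusted p = 0.00315 and 0.0128). Without the cells set aside, that of all cells was -1.23 (adjusted p = 8.02e-04). Stromal-like cells, which had the highest Cd63, at 2551 CPM in the only mouse with over 20 of them, were 2.37 to 7.06% of cells in control and 0.413 to 2.30% in cKO mice.

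Cd81 was at 624.6, 751, 322 and 312 CPM in control replicates 1 to 4 and at 334, 276, 172 and 288 CPM in cKO replicates 5 to 8 over all cells. The groups overlapped by cKO replicate 5, and the log2 fold change of -0.83 did not pass (standard error 0.28, adjusted p = 0.119, edgeR). It passed without the cells set aside (-1.50, adjusted p = 0.0150) and without control replicate 4 (-1.01, adjusted p = 0.0384). Within the bins, Cd81 was at -0.77, -0.57 and -0.56 from low to high (adjusted p = 0.509, 0.590 and 0.600), so that the sign was negative in each and none passed.

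Cd82 was at 86.9, 105, 81.5 and 94.2 CPM in control and at 54.3, 78.6, 58.3 and 73.1 CPM in cKO mice. The groups did not overlap, as for 8.34% of all genes in this direction. Its log2 fold change of -0.37 did not pass (standard error 0.16, adjusted p = 0.211, edgeR). Cd53 had 0.62 (standard error 0.26, adjusted p = 0.198), with 445 to 868 CPM in control and 593 to 1337 CPM in cKO mice. The remaining members were further from the threshold, Cd151 at -0.53 (adjusted p = 0.349), Cd9 at -0.22 (adjusted p = 0.494) and Cd37 at 0.09 (adjusted p = 0.845). The sign of Cd37 turned with scaling by library size alone, which moved the median of all genes from -0.03 to -0.13. In the middle bin, where 0.942% of genes were called, and in the high bin, where 0.436% were called, no member passed. Of the members, Cd151 in the high bin had a log2 fold change of -1.03 (95% interval -1.93 to -0.13, adjusted p = 0.524, edgeR). Among all genes, the unadjusted p was under 0.05 for 929 genes in the middle and 872 genes in the high bin.

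**Figure D4:**
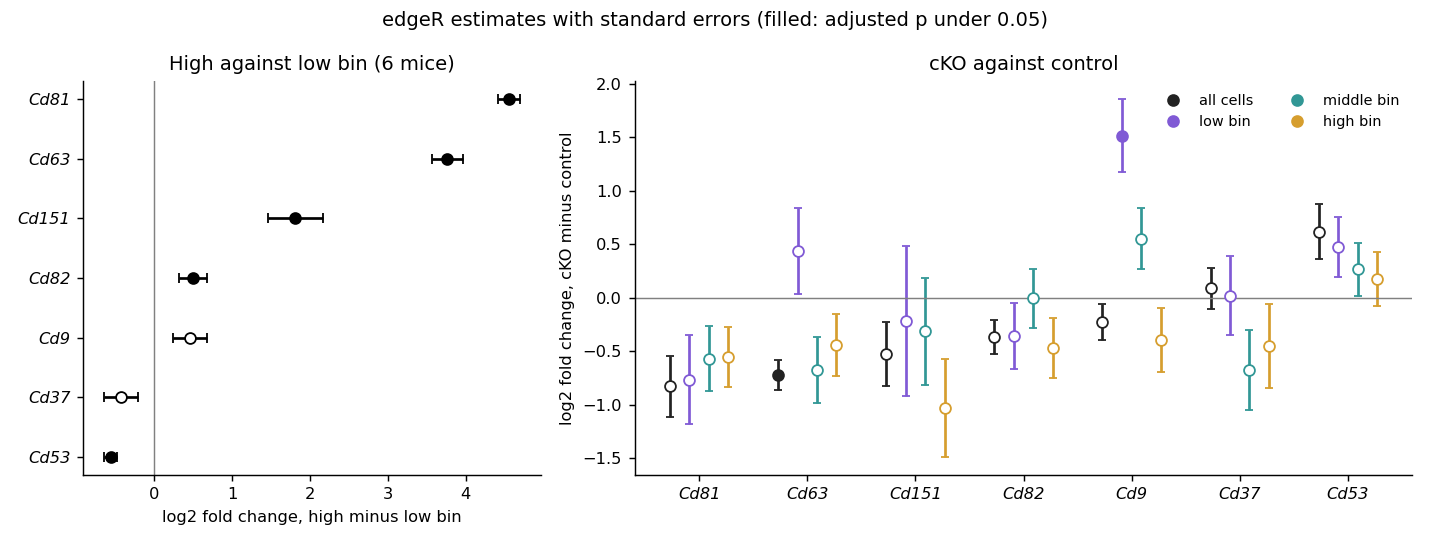
Log2 fold changes with standard errors from edgeR. Left, high against low bin for each tetraspanin (x axis, log2 fold change); right, cKO against control (y axis, log2 fold change) over all cells and in each bin, with filled points for an adjusted p under 0.05. On the right only Cd63 over all cells (-0.73) and Cd9 in the low bin (1.52) are filled.

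The cell groups set aside had the highest levels of some tetraspanins. Among the groups with several mice, Cd9 was highest in dendritic-like cells, at 409 ± 57.8 CPM (SD, n = 7 mice with at least 20 such cells), above the middle bin at 173 ± 70.3 CPM (n = 8), with control and cKO mice pooled. The order of the bins depended on the condition, since Cd9 in control mice was at 66.8 ± 14.8 CPM in the low (SD, n = 3) and 186 ± 25.9 CPM in the high bin (SD, n = 4), and in cKO mice at 183 ± 33.8 CPM (n = 3) and 130 ± 57.5 CPM (n = 4). Stromal-like cells, with only control replicate 1 over 20 cells, were at 541 CPM. Dendritic-like cells were 18.2 to 26.9% of cells in control and 4.55 to 8.53% in cKO mice, and Cd9 over all cells moved from -0.22 to 0.33 (adjusted p = 0.429) without the groups set aside. Cd81 followed the order of high bin (1123 ± 333 CPM, n = 8), lymphoid-like (521 ± 77.6 CPM, n = 6), dendritic-like (229 ± 85.8 CPM, n = 7), middle (200 ± 87.9 CPM, n = 8) and low bin (49.1 ± 26.1 CPM, n = 6), of which only the dendritic-like and the middle bin overlapped within their SD. Cd63 was at 860 ± 180 CPM in the high bin, 258 ± 125 CPM in the middle bin and 60.4 ± 34.2 CPM in the low bin, and lymphoid-like (44.0 ± 28.3 CPM) and dendritic-like cells (43.7 ± 38.0 CPM) did not differ from the low bin beyond their spread.

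Cd37 and Cd82 were highest in lymphoid-like cells, at 198 ± 24.2 and 300 ± 123 CPM (SD, n = 6). Cd82 there was at 212 ± 28.6 CPM over 3 control and 389 ± 116 CPM over 3 cKO mice, the opposite direction to that over all cells, and this difference was not tested. Dendritic-like cells came next, at 62.2 ± 27.2 and 102 ± 22.2 CPM (n = 7), and did not differ from the nearest bin beyond the spread. Cd53 was between 656 ± 205 CPM in dendritic-like cells and 1137 ± 275 CPM in the low bin, and no neighbours in its order differed beyond their spread. Cd151 was at 32.0 ± 31.3 CPM in lymphoid-like cells, 23.8 ± 12.7 CPM in the high bin and 5.07 ± 3.25 CPM in dendritic-like cells, with all neighbours overlapping. A level can be compared between groups of cells for 1 gene but not between genes, since 3′ counts depend on the end of the transcript that is read.

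**Figure D5:**
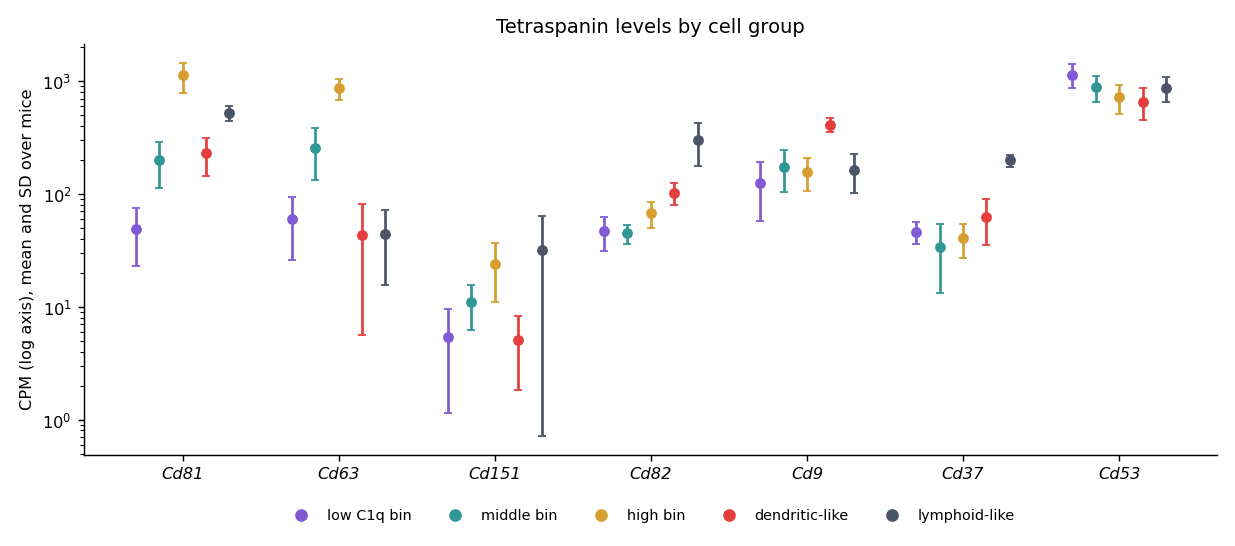
Mean and SD over mice of the level in CPM (y axis, log scale) of each tetraspanin (x axis), control and cKO mice together, in the low, middle and high bin by C1q and in dendritic-like and lymphoid-like cells. Cd81 and Cd63 peak in the high bin (1123 and 860 CPM), Cd9 in dendritic-like cells (409 CPM), and Cd37 and Cd82 in lymphoid-like cells (198 and 300 CPM).

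Over 36 sums per mouse and cell group, the genes with the most similar pattern were found by Pearson correlation of log2(CPM + 10). These were Hebp1, Tmem119 and Galc for Cd63 (r = 0.89, 0.88 and 0.87), Blnk, Gpr34 and Ccl8 for Cd81 (0.84, 0.80 and 0.76), Srgn, Arhgdib and Slc9a3r1 for Cd53 (0.93, 0.91 and 0.89) and Actn1, Dbn1 and Ece1 for Cd9 (all 0.76). For Cd151 they were Serpinb6a, Pmp22 and Eng (0.87, 0.82 and 0.81), for Cd82 Hmces, Pole4 and Sptssa (0.87, 0.87 and 0.86) and for Cd37 Sec11c, Glipr1 and Hist1h4c (0.85, 0.84 and 0.83). Between members, Cd82 and Cd37 had the highest correlation (r = 0.63) and Cd63 and Cd37 the lowest (r = -0.59), while Cd81 and Cd63 had 0.42. The sums share mice, libraries and depth, so that these values are a description.

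Of 24 other tetraspanins listed, 10 passed the filter along the ranking, and 3 rose and none fell. Of all genes tested, 9.75% rose and 12.3% fell. Tspan4, a tetraspanin of migrasomes, went from 5.67 ± 3.01 CPM in the low (SD, n = 6) to 62.9 ± 25.2 CPM in the high bin (SD, n = 8), a difference of 3.71 on the log2 scale (standard error 0.29, adjusted p = 6.31e-13, edgeR). Tspan3 and Tspan32, the latter a leukocyte tetraspanin, had 1.28 and 0.91 (adjusted p = 3.65e-04 and 0.00132). The median of the 10 genes was -0.08 and that of all genes 0.02, against 0.50 for the 7 members. Between conditions no other tetraspanin was called over all cells (12 tested, median -0.15, median of all genes -0.03) or in a bin (10 tested).

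Of 22 known partners, 20 passed the filter, and 4 rose and 5 fell along the ranking (median -0.10), where 9.75% of all genes rose and 12.3% fell. The integrin subunit Itgax (CD11c) rose by 1.7 and Cd4, a partner of CD81 and CD82 in T cells, by 4.87 on the log2 scale, from 0.940 ± 1.08 to 35.0 ± 24.9 CPM. The hyaluronan receptor Cd44 fell by 1.11, and the integrin subunits Itgal, Itga4 and Itgb2, which serve leukocyte adhesion, fell by 0.93, 0.84 and 0.54 (adjusted p = 6.54e-04 or lower for all 6 genes, edgeR). Over all cells, Cd44 was higher (0.74, adjusted p = 0.0383) and Dpp4, the peptidase CD26 and one of the dendritic markers, was lower in cKO mice (-0.77, adjusted p = 0.0268), and no partner was called within a bin.

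All 16 genes of endosomes and exosomes passed the filter. Along the ranking, 2 rose and 4 fell in control mice alone, where 706 of all 10078 genes rose and 656 fell. In cKO mice alone, 0 rose and 7 fell, where 542 of all 10056 genes rose and 893 fell. Over the 6 mice together 1 rose and 7 fell (median -0.19), where 9.75% of all genes rose and 12.3% fell. Cd63 rose. Lamp1, a membrane protein of lysosomes, rose by 0.55 (adjusted p = 0.00198), whereas Anxa2, an annexin of membranes, fell by 2.39 (adjusted p = 2.97e-16), Rab27a, which docks secretory vesicles, by 2.31, the flotillins Flot2 and Flot1 by 1.44 and 0.61, and the ESCRT-III subunit Chmp4b by 0.91 (adjusted p = 0.00439 or lower, edgeR). Chmp4b was the only one called between conditions, and was higher in cKO mice over all cells (1.27, adjusted p = 0.0226), in the low bin (1.52, adjusted p = 0.00528) and in the middle bin (1.07, adjusted p = 0.0475). In the low bin it was at 109 ± 20.8 CPM over 3 control mice and 294 ± 81.8 CPM over 3 cKO mice (SD). The groups did not overlap there, as for 8.73% of all genes in this direction.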

How the data were processed

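Per the labels and the study's methods, the authors sequenced 10x 3′ libraries of 8 mice, aligned reads to mm10 with EYFP added (Cell Ranger with STAR 2.5.3a), merged libraries without down-sampling and deposited unfiltered UMI counts per gene and cell. From these, cells with at least 2.8 log10 UMIs, at least 2.6 log10 genes, at most 5% mitochondrial UMIs and no hemoglobin UMI were kept. Doublets were called per mouse with Scrublet (scanpy 1.11.5) and kept. Cells were clustered with scran 1.30.0 and Ward linkage on 10 principal components of 11807 genes, without the genes studied. Clusters with at least 3 markers of another lineage among their 10 leading genes were set aside. UMIs were summed per mouse (and bin, with at least 20 cells) and tested with edgeR 4.0.16 (TMM, genes above 1 CPM in at least 3 sums and found in at least 20 cells, quasi-likelihood F test, Benjamini-Hochberg over all genes): cKO against control over all cells and within bins, high against low bin with the mouse as a block, and the interaction of both. Shares of cells used an exact permutation test (two-sided). Single-cell shares were recomputed at 1000 UMIs per cell. Intervals of fold changes are 95% normal intervals. The procedure was tested on simulated counts with 200 genes changed 4-fold, and smaller changes were not simulated. It recovered 160 of them over all cells and 149 along the ranking, with 11 and 3 wrong calls. Within the low, middle and high bins it recovered 103, 112 and 99, with 5, 5 and 4 wrong calls, so that a gene not called in a bin can still differ. The simulated sums of a mouse shared no effect, so that the lack of a mouse term within bins was not checked. Each mouse gave 1 library of 497531 to 3762314 UMIs. Over all cells, p-values measure the spread between mice. For cKO against control within bins, 22 sums of 8 mice were fitted together without a mouse term, as if sums of the same mouse were independent. With the mouse as a block, p-values measure how the difference between bins varies between mice.

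The members and gene lists were chosen with earlier results of these data known. Named genes were all 7 members, up to 6 genes past the threshold per list and comparison by adjusted p, and the 3 most correlated genes per member. Fits used Python 3.11.15, scipy 1.17.1, R 4.3.3 and, as an alternative, DESeq2 1.42.0. Other alternatives were no filter, library sizes alone, doublets left out, a mitochondrial limit of 10%, other ranking genes or bins, and each mouse left out.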

Additional observations from a re-analysis of the deposited data

Results flagged for a closer look

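In the high bin, Cd63 in control replicate 3 (842 CPM, 21 cells) lay apart from the other 3 control mice (1030 to 1059 CPM), with a gap to the nearest of 0.870 of the group's range. Of 42 groups of 4 mice or more examined in this way, chance alone flags about 1 in 20. The change of Cd9 with the condition differed between the bins, by -1.77 on the log2 scale between the high and the low bin (adjusted p = 6.9e-04, edgeR's interaction term). The level was higher in all 3 cKO mice than in all 3 control mice in the low bin, while the groups overlapped in the high bin.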

How the results depend on the processing

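Over all cells, 510 genes were called, against 787 with no filter on low counts and 331 without the groups set aside, and members lower numbered 2 under both (Cd81 at -0.84, adjusted p = 0.0442, with no filter). Leaving out 1 mouse gave 155 to 738 genes and 0 to 2 members lower, with Cd37 at -0.064 to 0.22 and Slc3a2 at -0.10 to 0.26. Library sizes alone gave Cd37 at -0.016 and Slc3a2 at -0.079, doublets left out gave Slc3a2 at -0.070, and the groups set aside left out gave Cd9 at 0.33, Cd37 at -0.21 and Slc3a2 at -0.37. With library sizes alone, 270 genes were higher and 261 lower (50.8% higher), against 341 and 169 (66.9%), and the median of all genes moved from -0.03 to -0.13.

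In the low bin, 110 genes were called, against 301 with no filter, 232 with each bin fitted alone, 585 with all cells ranked and 60 without cluster 4. No member was higher (0) with all cells ranked, with 4 bins, without cluster 4 or with the other ranking genes, where Cd9 was at -0.43, 1.25, 0.94 and 0.76. DESeq2 gave 94 higher and 66 lower genes (58.8% higher), against 85 and 25 (77.3%). Leaving out 1 mouse gave 43 to 157 genes and 0 to 1 members higher, with Cd9 at 1.31 to 1.60, Cd37 at -0.25 to 0.17 and Cd151 at -0.60 to 0.55. Cd37, at 0.02, was at -0.10 with DESeq2, -0.070 with library sizes alone, -0.0036 without doublets, -0.18 with the mitochondrial limit of 10%, -0.011 with the bin alone, -0.019 with at least 10 cells, -0.0013 with 4 bins and -0.47 with the other ranking genes. Cd63 was at -0.12 with all cells ranked and -0.90 with the other ranking genes, Cd82 at 0.017 with 4 bins and Cd151 at 0.14 without cluster 4.

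In the middle bin, 95 genes were called, against 219 with no filter, 512 with all cells ranked and 144 with the other ranking genes, where 1 member was lower (Cd63). Leaving out 1 mouse gave 53 to 134 genes, with Cd82 at -0.094 to 0.11 and Cd151 at -0.63 to 0.35. Cd82 was at 0.075 with the mitochondrial limit and 0.005 with at least 10 cells, Cd9 at -0.063 with all cells ranked and Cd37 at 0.059 with the other ranking genes. DESeq2 gave 69.2% of called genes as higher, against 84.2%. In the high bin, 44 genes were called, against 145 with no filter, 71 with all cells ranked, 77 with 4 bins and 206 with the other ranking genes, where 1 member was lower (Cd63) and Cd9 was at 0.16. Leaving out 1 mouse gave 20 to 80 genes, with Cd53 at -0.015 to 0.34.

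Along the ranking, 2224 genes were called, against 939 with the other ranking genes and 1803 to 2076 with 1 mouse left out (3 to 4 members higher). Members lower numbered 3 with all cells ranked (Cd9 -0.71, Cd82 -0.57, Cd37 -0.68, with Cd53 at 0.038) and 0 with the other ranking genes (Cd9 -0.53, Cd53 -0.025, Cd151 0.67). Cd9 passed with no filter (0.49), 4 bins (0.67) and without cluster 4 (0.86). Cd82 did not pass with DESeq2 (0.53, adjusted p = 0.0961). No paired analysis was possible because control replicates 1 to 4 and cKO replicates 5 to 8 share no number; the comparison of bins has the mouse as a block, and with no replicate block Cd82 did not pass (0.52, adjusted p = 0.106).

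For the difference of the cKO effect between bins, 49 genes were called, against 108 with no filter, 254 with all cells ranked, 12 with the other ranking genes and 13 without cluster 4, and no member (0) with all cells ranked (Cd9 0.047) or the other ranking genes (Cd9 -0.74). Leaving out 1 mouse gave 30 to 77 genes and 1 to 2 members lower (Cd63 at -1.67, adjusted p = 0.00705, without control replicate 1), with Cd9 at -2.07 to -1.58, Cd81 at -0.17 to 0.53, Cd151 at -1.18 to 0.070 and Cd37 at -0.53 to 0.12. Cd81 was at -0.083 with the mitochondrial limit, -0.20 with all cells ranked and -0.12 without cluster 4. Cd37 was at 0.003 with the mitochondrial limit and 0.0059 with the other ranking genes, and Cd82 at 0.18 with cells of at least 2000 UMIs and 0.072 with the other ranking genes. Called genes were 42.9% higher, against 57.5% with DESeq2 and 53.5% with library sizes alone. The share of cells in the high bin differed by -19.8 points without doublets (exact p = 0.0571) and by -25.0 to -16.0 points with 1 mouse left out (p = 0.0571, the smallest that 4 against 3 mice allow). The low bin differed by 13.1 to 22.6 and the middle bin by -0.88 to 6.85 points.

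The alternatives without cluster 4, with cells of at least 2000 UMIs and those of the interaction, and the other ranking genes within bins, were chosen after seeing the data. The causes of these changes were not tested. Depth limits the scarce members, Cd151 above all, and the bins of control replicate 3 and cKO replicate 5.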
